A study of Caenorhabditis elegans with 66 samples.

Results

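The age change of piRNAs was examined in Caenorhabditis elegans lacking mut-16 or hrde-1, in whole worms at 72 h, when they are gravid adults, and at 48 h, when they are L4 larvae. Every piRNA of the deposited count table was included, 17114 in all, and each genotype was compared between the ages on its own. These libraries are 12 of the 66 in the series, with 3 libraries for each genotype and age, all of set B. The genotypes are labelled mut-16(-) and hrde-1(-), with no allele named, and the wild type is N2 by its labels. Wild type of the same set at both ages (6 libraries) served for the size of the change, while wild type of set A (6 libraries) defined the stage classes. The labels give whole worms for every group and do not say that the 3 libraries of a group came from separate cultures, so p-values measure the spread between these libraries. mut-16 and hrde-1 mRNA and markers of the germ line were not measured in a table of piRNAs, so neither the genotype nor the tissue could be checked against a defining gene.

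piRNAs of C. elegans, also called 21U-RNAs, are made in the germ line, mostly start with uridine, and guide the Piwi protein PRG-1 to foreign and self transcripts. Binding by PRG-1 starts the making of secondary small RNAs, and MUT-16 is the scaffold of the perinuclear Mutator foci where these are amplified, while HRDE-1 is the germline nuclear Argonaute that carries them to chromatin. Both proteins act after the piRNA itself, and the comparison asks whether the change in the piRNA pool between larva and adult needs them. L4 hermaphrodites make sperm and adults make oocytes, and piRNAs enriched in each kind of germ line are known. In whole worms a lower level from fewer germ cells and one from less RNA per cell cannot be told apart.

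The sequences below belong to the piRNAs that the results turn on, with the seed (bases 2 to 8) in capitals. They are the most abundant that were higher at 72 h in both mutants, the most abundant that were lower, those with a large fold change, and a pair whose levels were highest in wild type. The letters are those of the deposited table, as DNA, 5′ to 3′.
21ur-3421: tCATCCTGattttgaactaca
21ur-5107: tCCGAATTccgaattgaaact
21ur-5504: tCTTGAACggctaggatcact
21ur-2235: tTAGATAGagactgcatgatt
novel_21ur-0997: tTACCGACtagtgaaaatctt
21ur-6881: tTGATCTGatagaatgtcatc
21ur-7999: tTCTGTGAaatttcgattatc
21ur-669: tTGTCGATcttttgaattctt
21ur-6420: tTTTTTCCgtcgtcttggact
21ur-7611: gCATTTAAaaatttaacgact
21ur-10492: gAGTTTTTctcgtcgatcgaa

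All but the last lie on chromosome IV (WBcel235, 1-based). 21ur-3421 is at chrIV:13700230-13700250 (minus strand), 21ur-5107 at chrIV:15257820-15257840 (minus), 21ur-5504 at chrIV:16041087-16041107 (plus) and 21ur-2235 at chrIV:16629788-16629808 (plus), none within another annotated gene. novel_21ur-0997, which carries no annotated name, is at chrIV:14358034-14358054 (minus), and 21ur-6881 is at chrIV:16374700-16374720 (plus), both outside other genes. 21ur-7999 at chrIV:15705221-15705241 (minus) lies within Y105C5A.15, antisense and between its exons. 21ur-669 at chrIV:16575752-16575772 (minus) falls in Y51H4A.8, also between exons but in the gene's own direction. 21ur-6420 at chrIV:16473712-16473732 (minus) and 21ur-7611 at chrIV:16837991-16838011 (plus) are outside other genes. 21ur-10492 at chrII:13247294-13247314 (minus) is antisense to an exon of F15D4.5. Of these 11, 21ur-7611 and 21ur-10492 start with g and the others with t.

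The libraries held enough piRNA counts to test 7448 piRNAs, which carried between 98.5 and 99.1% of the counts of each library. The total of piRNA counts per library was 2276260, 2219936 and 1254438 in mut-16 at 72 h, against 1492765, 990433 and 1079032 in mut-16 at 48 h. In hrde-1 it was 652026, 1080336 and 787185 at 72 h, against 1107688, 697595 and 835358 at 48 h. The ages overlapped in both mutants. The ratio of means was 1.61 in mut-16 (exact two-sided permutation p 0.2) and 0.954 in hrde-1 (exact permutation p 0.7), beside 0.934 in wild type (exact permutation p 0.6), with 3 libraries against 3 in each, where the smallest p is 0.1. Without 1 mut-16 library at a time that ratio lay between 1.46 and 1.89. These totals come from a table of piRNAs alone and are not library depths, so they do not give the amount of piRNA per worm. Wild type replicate 3 at 72 h, which its label gives as resequenced, had Spearman correlations of 0.897 and 0.894 with replicates 1 and 2, against 0.931 between those. The wild-type class shares, the counts of calls and the differences from wild type are given with and without that library. To a lesser degree hrde-1 replicate 2 at 72 h also stood apart, with 0.909 and 0.905 to replicates 1 and 3, against 0.928 between those.

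Most piRNAs changed between the ages in both mutants. edgeR's quasi-likelihood test called 6212 of the 7448 piRNAs in mut-16 (83.4%) at a Benjamini-Hochberg adjusted p below 0.05, with 3199 higher and 3013 lower at 72 h than at 48 h. In hrde-1 it called 6188 (83.1%), with 2902 higher and 3286 lower, and in wild type of the same set 6146 (82.5%), with 2850 higher and 3296 lower. Calls of at least 2-fold numbered 5750 in mut-16 (77.2%), 5802 in hrde-1 (77.9%) and 5785 in wild type (77.7%). All 3 libraries of one age lay beyond all 3 of the other for 84.0% of the piRNAs tested in mut-16, 82.9% in hrde-1 and 82.1% in wild type, and 75.1, 75.5 and 74.9% were also called and changed at least 2-fold. The split into higher and lower depended on the scaling between libraries. The median log2 fold change over all piRNAs tested was 0.25 in mut-16 and -0.15 in hrde-1 with TMM, and -0.57 and -0.53 when each library was scaled by the sum of its piRNA counts. Scaled by that sum, mut-16 had 2043 piRNAs higher and 3559 lower, by DESeq2 size factors 2423 against 3432, and in limma on the authors' deposited log2 CPM 2096 against 5162. For hrde-1 the same 3 gave 2459 against 3531, 2601 against 3458 and 2860 against 4435, while scaling by TMMwsp, a form of TMM for tables with many zeros, gave more higher, 3356 against 2951, with a median of 0.36. Without wild type replicate 3 at 72 h, wild type had 6226 calls, 2832 higher and 3394 lower. Single fold changes below are read against those medians, and shares of a library's counts, which need no scaling between libraries, are given beside them.

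Stage classes drawn from other libraries moved the same way in both mutants. In set A wild type, fitted alone, 5039 of 6287 piRNAs tested (80.1%) changed at least 2-fold between the ages, of which 2321 were higher at 72 h, here the 72 h-enriched class, and 2718 were higher at 48 h, the 48 h-enriched class. Of the 2274 piRNAs of the 72 h-enriched class that were tested in set B, 2157 were higher at 72 h in mut-16 and 2131 in hrde-1, against 43.0% and 39.0% of all piRNAs tested, and 2136 were higher in wild type, against 38.3%. None was called lower (0 in each). Of the 2706 tested of the 48 h-enriched class, 2538 were lower at 72 h in mut-16 and 2645 in hrde-1, against 40.5% and 44.1% of all piRNAs tested. In wild type 2640 were lower, against 44.3% of all, and 0 were called higher in each genotype. Scaled by the piRNA sum, the 72 h-enriched class had 1754 members higher and 1 lower in mut-16 and 1969 higher and 2 lower in hrde-1, and the 48 h-enriched class had 2696 and 2684 lower, with 0 higher.

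The same classes filled most of each library. piRNAs of the 72 h-enriched class held 68.0, 66.9 and 66.4% of the piRNA counts in mut-16 at 72 h, against 32.3, 25.9 and 28.5% in mut-16 at 48 h. In hrde-1 they held 68.8, 67.6 and 67.3% at 72 h, against 26.7, 21.3 and 22.9% at 48 h. Every 72 h library was above every 48 h library in both mutants. piRNAs of the 48 h-enriched class held 7.14, 7.89 and 8.56% in mut-16 at 72 h, against 41.4, 47.3 and 44.5% in mut-16 at 48 h, and 6.55, 7.58 and 7.64% in hrde-1 at 72 h, against 46.8, 52.0 and 50.7% in hrde-1 at 48 h. Here every 72 h library was below every 48 h library. The means were 67.1 ± 0.784% and 28.9 ± 3.22% for the 72 h-enriched class in mut-16 at 72 h and 48 h, 67.9 ± 0.813% and 23.6 ± 2.82% in hrde-1, and 67.7 ± 1.64% and 23.7 ± 3.92% in wild type (SD, n = 3 each). Without the resequenced library the wild-type mean at 72 h was 68.7% for this class, and 6.75% for the 48 h-enriched class. The exact two-sided permutation p was 0.1 for each class and genotype, the smallest that 3 libraries against 3 allow, and 0.118 after adjustment over 39 tests. piRNAs in neither class moved little in share, with 23.3 ± 0.133% in mut-16 adults and 24.3 ± 0.348% in mut-16 larvae, and 22.9 ± 0.297% in hrde-1 adults and 24.1 ± 0.133% in hrde-1 larvae (SD, n = 3 each), though each adult library was lower.

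**Figure D1:**
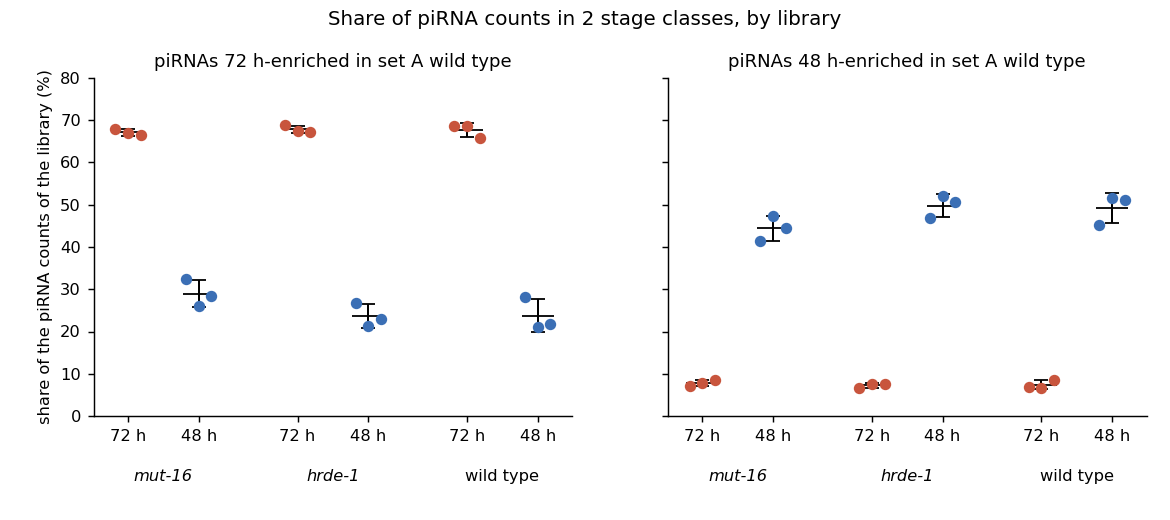
Percentage of a library's piRNA counts found in the 72 h-enriched class (left) and the 48 h-enriched class (right) of set A wild type, for mut-16, hrde-1 and wild type of set B at 72 h (red) and 48 h (blue). Points are libraries, bars the mean ± SD of 3. In all 3 genotypes the 72 h libraries hold between 65.8 and 68.8% in the 72 h-enriched class and the 48 h libraries between 21.1 and 32.3%.

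In counts, the class sums differed between the ages in opposite directions. The 72 h-enriched class had 1288672 ± 395693 counts in mut-16 adults and 348902 ± 118490 in mut-16 larvae (SD, n = 3 each). This is a ratio of 3.69, and in hrde-1 the ratio was 2.69, beside 2.65 in wild type. Sums of counts carry the larger mut-16 totals at 72 h, and on shares the order is the other way, with ratios of 2.32 in mut-16, 2.87 in hrde-1 and 2.85 in wild type. The 48 h-enriched class had 148438 ± 36064 counts in mut-16 adults and 522270.0 ± 83301 in mut-16 larvae (SD, n = 3 each), a ratio of 0.284, with 0.142 in hrde-1 and 0.139 in wild type, and on shares 0.177, 0.146 and 0.149. Without the resequenced library the wild-type ratios of counts were 2.77 and 0.133. The pool was also held by fewer piRNAs in adults: the 100 most abundant piRNAs of a library held 36.5 ± 0.599% of its counts in mut-16 at 72 h, against 23.3 ± 0.721% at 48 h, and 35.7 ± 0.926% and 23.1 ± 0.649% in hrde-1 (SD, n = 3 each). Both mutants did this without overlap between the ages (exact permutation p 0.1).

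The abundant piRNAs that were higher in adults were nearly the same in the mutants. By the rule for named piRNAs, the 5 most abundant of mut-16 and the 5 of hrde-1 share 4, namely 21ur-3421, 21ur-5107, 21ur-5504 and 21ur-2235. The lists took only piRNAs that were called, changed at least 2-fold and did not overlap between the ages in that mutant. For listed piRNAs, here and below, these traits follow from the selection and are no separate result. Levels here and below are in CPM of the library's own piRNA counts, which is not the TMM scale of the fold changes. 21ur-3421 had 14246, 14557 and 14182 CPM in mut-16 at 72 h, against 7863, 4695 and 7482 in mut-16 at 48 h. In hrde-1 it had 11317, 13109 and 13388 at 72 h, against 5313, 3988 and 5385 at 48 h. All adult libraries were above all larval libraries of the same mutant. On the TMM scale its log2 fold change was 1.93 in mut-16 (SE 0.21, edgeR adjusted p 6.66e-11) and 1.73 in hrde-1 (SE 0.20, edgeR adjusted p 5.76e-10), beside 1.72 in wild type.

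21ur-5504 changed more. Its level was 11647, 11186 and 10457 CPM in mut-16 at 72 h, against 3230.2, 1608 and 2562 at 48 h, and 10662, 10993 and 10989 in hrde-1 at 72 h, against 2351, 1538 and 2288 at 48 h. The ages did not overlap in either mutant. Its log2 fold change was 3.00 in mut-16 (SE 0.24, edgeR adjusted p 4.21e-13) and 2.77 in hrde-1 (SE 0.24, edgeR adjusted p 7.58e-13), beside 3.15 in wild type. 21ur-2235 averaged 9854 ± 384 CPM at 72 h, against 3526 ± 711 at 48 h, in mut-16, and 9058 ± 644 and 2702 ± 268 in hrde-1 (SD, n = 3 each), with log2 fold changes of 2.32 and 2.11. 21ur-5107 averaged 13421 ± 613 CPM at 72 h, against 8012 ± 1086 at 48 h, in mut-16, and 13270.4 ± 1734 and 8183 ± 52.2 in hrde-1 (SD, n = 3 each), a smaller rise with log2 fold changes of 1.58 and 1.06. With equal library sizes the value of 21ur-5107 in hrde-1 was 0.60 (edgeR adjusted p 0.11), which ended that call.

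The lists also held 1 abundant piRNA of each mutant that the other lacked. 21ur-4375 came in through hrde-1, where adults averaged 10442 ± 3105 CPM and larvae 2793 ± 232 (SD, n = 3 each), with a log2 fold change of 2.29. It was called in mut-16 as well, with a log2 fold change of 2.00. 21ur-1793, from the neither class of set A, came in through mut-16, where it had 19396, 19988 and 18211 CPM at 72 h, against 16422, 11662 and 14199 at 48 h, without overlap. In hrde-1 it had 13547, 14249 and 16163 CPM at 72 h, against 14167, 12282 and 14189 at 48 h, and the ages overlapped. Its log2 fold change was 1.28 in mut-16 (edgeR adjusted p 1.61e-07) and 0.48 in hrde-1 (edgeR adjusted p 0.0202). The hrde-1 call ended without 72 h replicate 3 (0.36, edgeR adjusted p 0.12) or replicate 2 (0.46, edgeR adjusted p 0.055) and with the sum of piRNA counts (0.11, edgeR adjusted p 0.516). The difference between the mutants was 0.80 (edgeR adjusted p 0.153), so it did not pass the test.

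Among the largest rises, novel_21ur-0997 is in the lists of both mutants. It had 338, 400 and 183 counts in mut-16 at 72 h, against 37, 15 and 25 at 48 h, and 116, 243 and 177 counts in hrde-1 at 72 h, against 16, 13 and 15 at 48 h. No library of one age reached the other. Its log2 fold change was 3.72 in mut-16 (SE 0.28, edgeR adjusted p 2.41e-14) and 4.01 in hrde-1 (SE 0.30, edgeR adjusted p 6.09e-15), beside 3.74 in wild type. 21ur-4464 was the other of mut-16, with 123, 101 and 49 counts at 72 h, against 16, 3 and 4 at 48 h. Its change there was 3.71 in log2 (edgeR adjusted p 4.93e-11). It was 2.30 in hrde-1, and the difference between the mutants did not pass the test (edgeR adjusted p 0.238). novel_21ur-0238, on chromosome II, was the other of hrde-1, with 53, 50 and 215 counts at 72 h, against 2, 4 and 2 at 48 h (5.75 in log2, edgeR adjusted p 0.000868). In mut-16 it had 19, 14 and 90 counts at 72 h, against 0, 3 and 1 at 48 h, and its call there (edgeR adjusted p 0.00674) ended without 48 h replicate 1 (edgeR adjusted p 0.054).

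The piRNAs that were lower in adults also were largely shared. The 5 most abundant of mut-16 and of hrde-1 share 4, namely 21ur-6881, 21ur-7999, 21ur-669 and 21ur-6053. 21ur-6881 had 535, 523 and 715 CPM in mut-16 at 72 h, against 4334, 5587 and 5563 in mut-16 at 48 h. In hrde-1 it had 302, 579 and 541 at 72 h, against 5795, 6690.1 and 6063 at 48 h. Each adult library was far below each larval library. Its log2 fold change was -2.30 in mut-16 (SE 0.26, edgeR adjusted p 2.2e-09) and -3.32 in hrde-1 (SE 0.27, edgeR adjusted p 2.16e-12), beside -3.02 in wild type. The mut-16 minus hrde-1 difference was 1.01 (edgeR adjusted p 0.165), which did not pass the test, though it did with replicate numbers as a block (1.06, edgeR adjusted p 0.0466). Over all piRNAs tested the median of this difference was 0.39 on the TMM scale, with and without the block.

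21ur-669 had 269, 331 and 389.8 CPM in mut-16 at 72 h, against 2649, 2114 and 2785 at 48 h, and 196, 267 and 272 in hrde-1 at 72 h, against 2662, 2572 and 3618 at 48 h. The ages were again apart in both mutants. Its log2 fold change was -2.11 in mut-16 (SE 0.24, edgeR adjusted p 6.76e-10) and -3.22 in hrde-1 (SE 0.26, edgeR adjusted p 9.4e-14), beside -2.76 in wild type. The difference between the mutants did not pass the test (SE 0.33, edgeR adjusted p 0.133), but did with the block (1.09, edgeR adjusted p 0.0445). 21ur-7999 averaged 330.0 ± 73.9 CPM at 72 h, against 2913 ± 427 at 48 h, in mut-16, and 305 ± 87.5 and 3112 ± 231 in hrde-1 (SD, n = 3 each), with log2 fold changes of -2.32 and -2.96. 21ur-6053, the only one of the 4 from the small cluster of chromosome IV (chrIV:6138551-6138571, plus strand), averaged 474 ± 23.5 CPM at 72 h, against 2302 ± 464 at 48 h, in mut-16, and 484 ± 126 and 3068 ± 516 in hrde-1 (SD, n = 3 each). Its log2 fold changes were -1.45 and -2.28. The fifth of each list was 21ur-5897 in mut-16, with -2.24 there and -3.44 in hrde-1, and 21ur-3822 in hrde-1, with -3.50 there and -2.65 in mut-16. Both piRNAs were called in both mutants. The mut-16 minus hrde-1 difference of 21ur-5897 was called with the block (1.21, edgeR adjusted p 0.0498). For 21ur-669 and 21ur-5897 too, the median difference over all piRNAs in the blocked fit was 0.39.

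The deepest falls were larger still. 21ur-6420 was listed in mut-16 and had 81, 82 and 55 counts in mut-16 at 72 h, against 1606, 1942 and 1242 at 48 h, and 25, 41 and 26 counts in hrde-1 at 72 h, against 1355, 1144 and 1091 at 48 h. Its log2 fold change was -4.33 in mut-16 (SE 0.26, edgeR adjusted p 5.64e-17) and -4.88 in hrde-1 (SE 0.27, edgeR adjusted p 7.68e-18), beside -4.98 in wild type. 21ur-8446 was listed in both mutants, with 8, 7 and 6 counts in mut-16 at 72 h, against 129, 179 and 123 at 48 h, and with 0, 4 and 0 counts in hrde-1 at 72 h, against 148, 108 and 106 at 48 h. 21ur-683 was listed in hrde-1, where it had 0, 1 and 2 counts at 72 h, against 62, 43 and 47 at 48 h. In mut-16 it had 12, 14 and 1 counts at 72 h, against 43, 48 and 50 at 48 h, and in wild type 0, 0 and 1 at 72 h, against 36, 31 and 45 at 48 h. Thus 2 of the mut-16 libraries kept a count above 10 in adults while the third did not, and the mut-16 minus wild-type difference did not pass the test (3.68, SE 1.16, edgeR adjusted p 0.154). Called falls of at least 16-fold numbered 38 in mut-16, 273 in hrde-1 and 311 in wild type on the TMM scale, counts that move with the scaling.

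**Figure D2:**
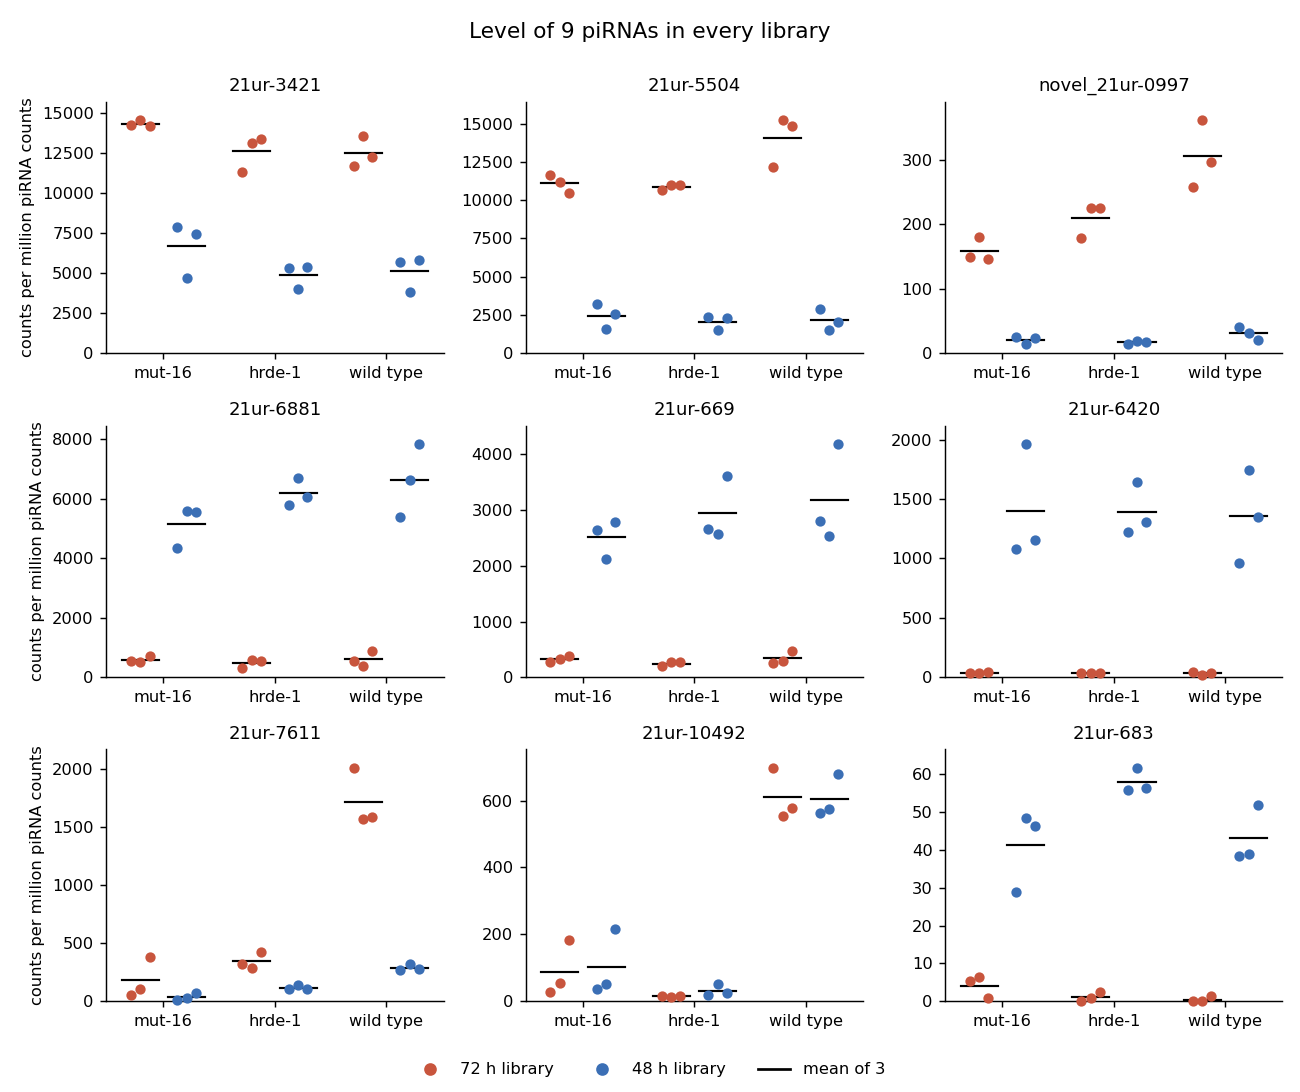
CPM (of a library's piRNA counts) of 9 piRNAs in mut-16, hrde-1 and wild type of set B at 72 h (red) and 48 h (blue). Points are libraries and black lines means of 3, and each panel has its own linear axis from 0. The top row is higher and the middle row lower at 72 h in each genotype, while 21ur-7611 and 21ur-10492 at 72 h reach at most 427 in the mutants and at least 553 in wild type.

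Across piRNAs the age changes of the mutants were alike. With each genotype fitted on its own 6 libraries, so that no library is shared, 5601 piRNAs were tested in both mutants, 97.3% had log2 fold changes of the same sign, and Pearson's r was 0.97 (Spearman's rho 0.95). Against set A wild type r was 0.96 for mut-16 (5877 piRNAs) and 0.96 for hrde-1 (5536 piRNAs), and between wild type of set B and of set A it was 0.96 (5635 piRNAs). These correlations are across piRNAs, which are not independent replicates, and piRNAs of one library share its depth and scaling, so no p is given. In those own fits 2283 piRNAs were called higher in both mutants, 78.7% of the 2900 of mut-16 and 92.1% of the 2478 of hrde-1. Lower in both were 2522, 83.0% of the 3039 of mut-16 and 96.4% of the 2615 of hrde-1. The mut-16 fit tested 6749 piRNAs and the hrde-1 fit 5805, and piRNAs untested in the other mutant count as not shared. No piRNA was called in opposite directions (0). The spread of the log2 fold changes over the 5601 piRNAs tested in both mutants had an SD of 1.92 in mut-16 and 2.23 in hrde-1. mut-16 also had the larger piRNA totals. Their part in this spread was not tested, but the gap between the stage classes at equal totals is given below.

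**Figure D3:**
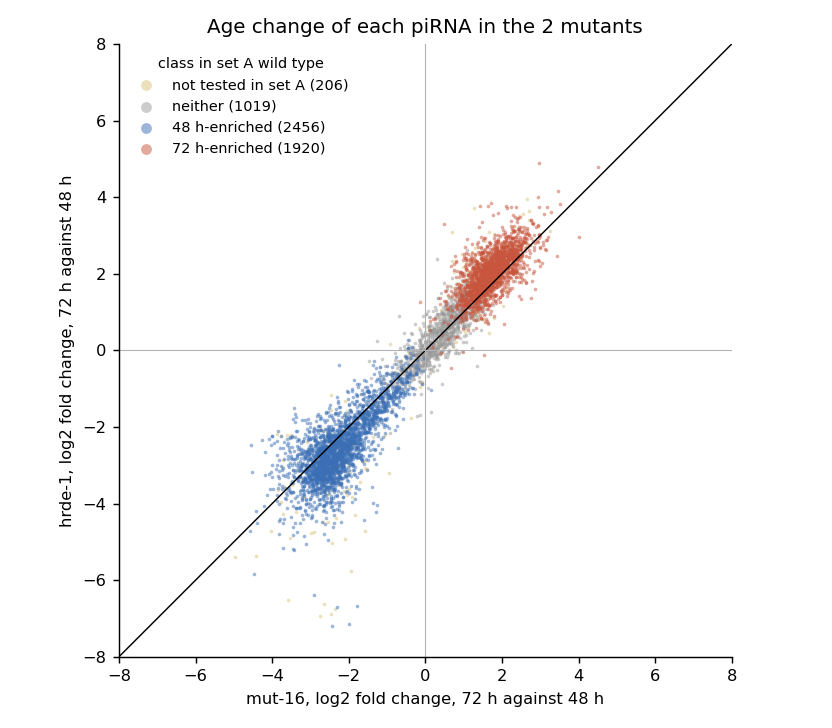
Log2 fold change of 5601 piRNAs, 72 h against 48 h, in mut-16 (horizontal axis) and in hrde-1 (vertical axis), each genotype fitted on its own libraries. Colours give the class in set A wild type, with 1920 piRNAs 72 h-enriched and 2456 48 h-enriched, and the black line marks equal change. The 72 h-enriched piRNAs lie at the upper right and the 48 h-enriched at the lower left.

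Whether the age change differs between genotypes was tested directly, as the difference of 2 age changes in 1 fit of 18 libraries. edgeR called 0 piRNAs for mut-16 minus wild type, 0 for hrde-1 minus wild type and 0 for mut-16 minus hrde-1 (0.0% in each). DESeq2 also called 0 in each. At an unadjusted p below 0.05 edgeR had 1063, 270 and 1110 piRNAs and DESeq2 471, 276 and 519, out of 7448. Of edgeR's, 1028, 140 and 1075 were higher, on the TMM scale, where median differences over all piRNAs were 0.38, -0.002 and 0.39. In limma on the deposited log2 CPM of 13211 piRNAs 0 were called in each, with 955, 487 and 998 at that p. The smallest edgeR adjusted p was 0.125, 1.00 and 0.0652. The counts at an unadjusted p below 0.05 moved with the scaling. edgeR had 466, 310 and 510 by DESeq2 size factors, and 444, 280 and 550 by the sum of piRNA counts. With TMMwsp it had 609, 287 and 729, and with equal library sizes 1342, 147 and 1076. Without wild type replicate 3 at 72 h, the resequenced library, mut-16 minus wild type had 37 calls, all 37 higher. The median difference over all piRNAs in that fit was 0.49 on the TMM scale. In the other cases of leaving out 1 library the 3 counts of calls were 0 or 1. With the replicate number as a block the counts were 11, 0 and 95, all 11 and 95 higher, on a scale where the median difference over all piRNAs was 0.39 for both mut-16 contrasts. Same-numbered libraries of different genotypes deviated together at 48 h, in 9 of 9 pairs with r over 0.1 (0.13 to 0.33), but not in every pair at 72 h (5 of 9) or between the ages of a genotype (2 of 9). Both differences from wild type use the same wild-type libraries.

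A missed threshold does not show equal change, so the intervals are given. The 95% interval of the difference lay within 4-fold either way for 63.6% of the piRNAs in mut-16 minus wild type, 62.8% in hrde-1 minus wild type and 63.5% in mut-16 minus hrde-1. It lay within 2-fold for only 1156, 1649 and 1137 piRNAs. The estimate itself was below 2-fold for 79.6%, 84.1% and 79.3% of piRNAs. Without the resequenced library, of 7929 piRNAs tested, the interval lay within 4-fold for 53.9% in mut-16 minus wild type and 56.3% in hrde-1 minus wild type.

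The classes lay closer together in mut-16 than in the others by estimate, and which class carries this depended on the scaling. On the TMM scale the members of the 48 h-enriched class had a median log2 fold change of -2.09 in mut-16, against -2.77 in hrde-1 and -2.73 in wild type, while the 72 h-enriched class had 1.94, 1.89 and 1.88. By DESeq2 size factors the 48 h-enriched class had -2.72 in mut-16, -3.04 in hrde-1 and -2.93 in wild type, and the 72 h-enriched class 1.30, 1.62 and 1.69. With TMMwsp the 48 h-enriched class had -2.20, -2.26 and -2.25, and the 72 h-enriched class 1.83 in mut-16 and 2.36 in wild type. The gap between the class medians, to which a shift shared by all piRNAs adds nothing, was 4.03 in mut-16, 4.66 in hrde-1 and 4.61 in wild type. With libraries thinned to equal totals, a setting chosen after seeing the data, it was 3.96, 4.67 and 4.58. The mut-16 minus wild-type difference between the classes kept its sign in 24 alternatives, from -0.83 to -0.46, and without the resequenced library it was -0.76. The hrde-1 minus wild-type one lay between -0.21 and 0.21, with -0.16 without that library.

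In single libraries the same contrast is the log2 ratio of counts in the 72 h-enriched class to counts in the 48 h-enriched class, a measure added after the class shares were seen. It was 3.25, 3.08 and 2.96 in mut-16 at 72 h, against -0.36, -0.87 and -0.64 at 48 h. In hrde-1 it was 3.39, 3.16 and 3.14 at 72 h, against -0.81, -1.29 and -1.15 at 48 h, and in wild type 3.33, 3.36 and 2.94 at 72 h, against -0.68, -1.29 and -1.22 at 48 h. The mut-16 libraries overlapped those of both other genotypes at each age. The age change was 3.72 in mut-16, 4.31 in hrde-1 and 4.27 in wild type. The difference was -0.56 for mut-16 minus wild type (exact permutation p 0.095 over 400 regroupings, adjusted p 0.756 over 39 tests), -0.59 for mut-16 minus hrde-1 (exact permutation p 0.045, adjusted p 0.715) and 0.04 for hrde-1 minus wild type (exact permutation p 0.915, adjusted p 0.964). None passed the adjusted threshold. Taken by replicate number, the mut-16 minus wild-type difference was -0.41, -0.70 and -0.56, the mut-16 minus hrde-1 one -0.59, -0.49 and -0.69, and the hrde-1 minus wild-type one 0.19, -0.20 and 0.13. Without the resequenced library the difference from wild type was -0.69 in mut-16 and -0.10 in hrde-1.

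**Figure D4:**
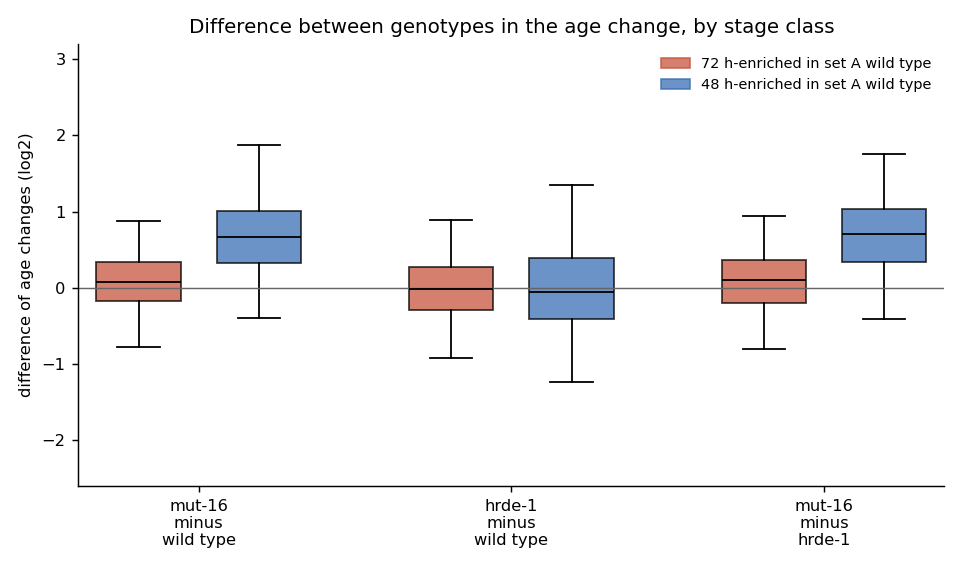
Difference between genotypes in the age change (log2, TMM scale) of 2274 piRNAs of the 72 h-enriched class (red) and 2706 of the 48 h-enriched class (blue), none of which passed the test on its own. Boxes span the middle 50% of piRNAs with the median as a line, whiskers the 5th to the 95th percentile, and the line at 0 means equal age change. The blue medians are 0.66 for mut-16 minus wild type, -0.05 for hrde-1 minus wild type and 0.71 for mut-16 minus hrde-1, and the red ones 0.07, -0.02 and 0.10. The blue medians move with the scaling, to 0.09, -0.01 and 0.09 with TMMwsp and 0.26, 0.00 and 0.24 with the sum of piRNA counts.

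piRNA genes lie mostly in broad clusters on chromosome IV, and the direction of the age change differed between places. Of 5488 piRNAs tested in the large cluster (the piRNAs tested there span chrIV:13543927-17199397), 2511 were higher and 2242 lower at 72 h in mut-16, and 2246 higher and 2473 lower in hrde-1. Of 1209 tested in the small cluster (chrIV:4655891-6994157), 414 were higher and 624 lower in mut-16, and 395 higher and 656 lower in hrde-1. Of 539 on other chromosomes, 216 were higher and 47 lower in mut-16, and 221 higher and 50 lower in hrde-1. The higher shares there, 40.1 and 41.0%, were near the 43.0 and 39.0% of all piRNAs tested, and the lower shares, 8.72 and 9.28%, were below the 40.5 and 44.1% of all. In the small cluster 51.6 and 54.3% were lower. Scaled by the piRNA sum, the large cluster leaned lower in both mutants (1704 higher and 2667 lower in mut-16, 1931 higher and 2659 lower in hrde-1), and other chromosomes still leaned higher (92 against 58, and 160 against 64). On the deposited log2 CPM, however, limma had 98 higher and 104 lower on other chromosomes in mut-16.

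Along chromosome IV the medians differed between megabases. Between 17 and 18 Mb the median log2 fold change of 223 piRNAs was -1.52 in mut-16 and -2.18 in hrde-1, and between 15 and 16 Mb that of 1638 piRNAs was 0.55 and 0.21. In the small cluster, between 6 and 7 Mb, it was -1.33 and -1.64 over 405 piRNAs. All piRNAs tested had medians of 0.25 and -0.15 on the same scale. The X chromosome had 51 piRNAs tested, of which 27 were higher and 1 lower in mut-16, and 36 higher and 1 lower in hrde-1, beside 44 higher and 1 lower in wild type. These are 52.9, 70.6 and 86.3% higher, against 43.0, 39.0 and 38.3% of all piRNAs tested. The shares called differed more than the size of the change did. Median log2 fold changes on X were 2.16 in mut-16, 1.95 in hrde-1 and 1.96 in wild type.

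**Figure D5:**
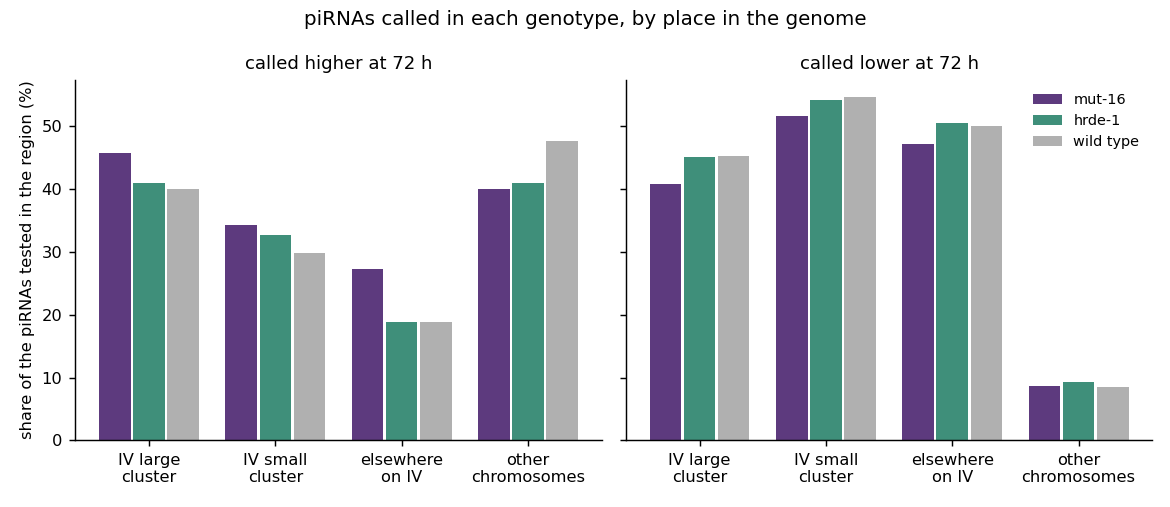
Share of the piRNAs tested in each region (%) called higher (left) or lower (right) at 72 h in mut-16, hrde-1 and wild type, on the TMM scale. Bars are shares of 5488 piRNAs in the large and 1209 in the small cluster of chromosome IV, 212 elsewhere on IV and 539 on other chromosomes. On other chromosomes 40.1, 41.0 and 47.7% were higher and 8.72, 9.28 and 8.53% lower.

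As a share of the library, the large cluster was higher at 72 h and the small cluster lower. The clusters together held nearly all piRNA counts, so a rise of one share largely implies a fall of the other. The large cluster held 90.9, 89.6 and 91.3% of piRNA counts in mut-16 at 72 h, against 87.1, 86.3 and 87.1% at 48 h, and 89.2, 86.9 and 89.4% in hrde-1 at 72 h, against 86.2, 85.3 and 85.5% at 48 h. The small cluster held 8.26 ± 1.03% in mut-16 at 72 h, against 11.3 ± 0.519% at 48 h, and 9.83 ± 1.63% and 12.2 ± 0.394% in hrde-1 (SD, n = 3 each). The ages did not overlap in either cluster or mutant, but in hrde-1 the small cluster came close. There adult replicate 2 had 11.69% and the lowest larval library 11.75%. Replicate 2 was the highest 72 h library for this cluster in each genotype, with 9.39% in mut-16 and 8.99% in wild type. Other chromosomes held 0.561, 0.540 and 0.757% in mut-16 at 72 h, against 0.540, 0.487 and 0.614% at 48 h, with the ages overlapping (exact permutation p 0.6). In hrde-1 they held 1.15, 0.868 and 1.32% at 72 h, against 0.753, 0.842 and 0.838% at 48 h, without overlap (exact permutation p 0.1). Wild type had 1.44 ± 0.195% at 72 h, against 0.985 ± 0.0806% at 48 h (SD, n = 3 each). The difference in age change between mut-16 and wild type was -0.381 percentage points (exact permutation p 0.4, adjusted p 0.881). Here too each mut-16 library lay below each wild-type library at both ages. Regrouping the genotypes does not remove that difference in level, so the test could not decide whether the age changes differ.

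For piRNAs antisense to an annotated exon the mutants' shares of counts ran in different directions, while in each more were called higher than lower. Of 470 tested, 148 were higher and 66 lower in mut-16, 207 and 73 in hrde-1, and 224 and 69 in wild type. The higher ones are 31.5, 44.0 and 47.7%, against 43.0, 39.0 and 38.3% of all piRNAs tested. Median log2 fold changes on the TMM scale were 1.11, 1.16 and 1.16, against 0.25, -0.15 and -0.18 over all. The antisense piRNAs held 1.33, 1.36 and 1.58% of counts in mut-16 at 72 h, against 1.64, 1.59 and 1.80% at 48 h, so that each adult library was lower. In hrde-1 they held 2.33, 2.07 and 2.44% at 72 h, against 2.04, 2.09 and 2.22% at 48 h, and the ages overlapped. Wild type had 2.38 ± 0.165% and 2.27 ± 0.0922% (SD, n = 3 each), also overlapping. The difference in age change of mut-16 from wild type was -0.361 percentage points (exact permutation p 0.535, adjusted p 0.881). Each mut-16 library lay below each wild-type library at both ages, and regrouping the genotypes does not remove such a difference in level. The test could therefore not decide whether the age changes differ. piRNAs with a novel_21ur name held 6.28 ± 0.160% in mut-16 at 72 h, against 5.96 ± 0.0665% at 48 h, and 6.92 ± 0.253% and 6.08 ± 0.0689% in hrde-1 (SD, n = 3 each), with no overlap between the ages. Of 1127 tested, 508 were higher and 243 lower in mut-16, and 479 higher and 263 lower in hrde-1. The higher shares of 45.1 and 42.5% were near the 43.0 and 39.0% of all piRNAs tested, while 21.6 and 23.3% were lower, against 40.5 and 44.1% of all.

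The sequences of the called piRNAs were close in composition. The first base was T in 98.2% of those higher and 98.1% of those lower in mut-16, and in 98.3 and 98.2% in hrde-1, with 98.2% over all piRNAs tested. GC content averaged 35.1% in those higher and 34.1% in those lower in mut-16, and 35.4 and 34.2% in hrde-1, with 34.7% over all. piRNAs with a novel_21ur name made up 15.9% of those higher and 8.07% of those lower in mut-16, and 16.5 and 8.00% in hrde-1, with 15.1% over all piRNAs tested and 30.4 and 30.6% among those not called.

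A pair of piRNAs named with earlier results known had higher levels in wild type than in either mutant at each age, a contrast not tested here. Both start with g, while 98.2% of all piRNAs tested start with T. Whether the reads counted under these names are piRNAs was not tested. 21ur-7611 had 52.7, 102 and 383 CPM in mut-16 at 72 h, against 9.38, 27.3 and 74.1 at 48 h. In hrde-1 it had 317, 285 and 427 at 72 h, against 107, 140.5 and 107 at 48 h, and in wild type 2008, 1565 and 1585 at 72 h, against 273, 318 and 275 at 48 h. Replicate 3 was the highest mut-16 library at both ages. The mut-16 ages overlapped, and the hrde-1 and wild-type ages did not. It was higher at 72 h in each genotype, with log2 fold changes of 3.04 in mut-16 (SE 0.68, edgeR adjusted p 0.00103), 1.91 in hrde-1 (SE 0.62, edgeR adjusted p 0.012) and 2.99 in wild type (SE 0.61, edgeR adjusted p 0.000567). In mut-16 fitted on its own libraries that call ended (2.83, edgeR adjusted p 0.071). 21ur-10492 had 29.0, 54.1 and 183 CPM in mut-16 at 72 h, against 35.5, 52.5 and 215 at 48 h. In hrde-1 it had 15.3, 13.9 and 15.2 at 72 h, against 19.0, 51.6 and 25.1 at 48 h, and in wild type 697, 553 and 578 at 72 h, against 562, 573 and 678 at 48 h. Its age change was not called in any genotype (log2 fold changes 0.53, -0.68 and 0.43, edgeR adjusted p 0.458, 0.518 and 0.515). It was called in mut-16 without 48 h replicate 3 (1.38, edgeR adjusted p 0.0285), the highest library, and in hrde-1, in the other direction, with equal library sizes (-1.07, edgeR adjusted p 0.0419).

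For 21ur-74 and 21ur-5554, abundant piRNAs that set A wild type put in neither class, the ages overlapped in CPM in both mutants. 21ur-74 averaged 10039 ± 771 CPM at 72 h, against 9572 ± 885 at 48 h, in mut-16, and 10434 ± 727 and 9035 ± 938 in hrde-1, and 21ur-5554 averaged 11088 ± 580.5 and 10885 ± 1150.2 in mut-16 (SD, n = 3 each). On the TMM scale both were called higher in both mutants (21ur-74 0.90 and 0.57, 21ur-5554 0.86 and 0.43). These calls ended with the sum of piRNA counts, at 0.06 and 0.20 for 21ur-74 and 0.02 and 0.06 for 21ur-5554. The calls of 21ur-5554 also ended in hrde-1 without 72 h replicate 3 (0.29, edgeR adjusted p 0.208) or replicate 2 (0.38, edgeR adjusted p 0.105), and in mut-16 without 48 h replicate 2 (0.39, edgeR adjusted p 0.067) or replicate 1 (0.41, edgeR adjusted p 0.062). 21ur-2400, of the 72 h-enriched class, averaged 2665 ± 87.0 CPM at 72 h, against 1696 ± 175 at 48 h, in mut-16, and 2208 ± 59.6 and 1612 ± 211 in hrde-1 (SD, n = 3 each). Its log2 fold changes were 1.49 and 0.82, and the hrde-1 call ended with equal library sizes (0.35, edgeR adjusted p 0.355).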

How the data were processed

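Small RNA of whole worms was sequenced after 5′ polyphosphatase treatment, per the labels' protocols. The submitters' processing notes name Trimmomatic 0.39, Bowtie 1.1.1, HTSeq, edgeR and WBcel235. The authors deposited a table of raw counts for 17114 piRNAs per library, per the file headers, of which 12 columns could be tied to no sample and stayed unused. The authors' second deposited table holds log2 CPM for 13211 piRNAs, batch-corrected by its name, with a model that is not given in the sources used here. It gave sequences and coordinates, and its log2 values entered 1 alternative. Of the annotated piRNAs there, 11444 of 11451 have the coordinates of the WBcel235 annotation. Sequences listed more than once number 34, none of them named here.

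A single fit took the counts of the 18 set B libraries, with a mean per genotype and age (edgeR 4.0.16 in R 4.3.3, TMM, robust quasi-likelihood F test, filterByExpr with minimum count 10 and minimum total 15). Calls have a Benjamini-Hochberg adjusted p below 0.05 over all piRNAs tested, and 9666 piRNAs were not tested. Printed log2 fold changes are edgeR's shrunken values. Each SE is the unshrunken log2 fold change divided by the square root of F, and 95% intervals are normal ones from that SE. Shares and totals were compared by exact permutation tests that enumerate every regrouping. Differences of age changes were tested as interaction contrasts, and for shares by regrouping genotypes within ages. That regrouping does not remove a genotype difference in level, so its p can be too large where the levels differ. Named piRNAs were, in each mutant and direction, the 5 most abundant and the 2 with the largest change (at least 50 counts on average in the higher age) among calls of at least 2-fold whose ages did not overlap, plus 10 named with earlier results known. No difference of age changes gave a name, since 0 were called. The members, lists and classes were chosen with earlier results of these data known. The pipeline was tested on simulated data. Alternatives were other scalings (DESeq2 1.42.0 size factors among them), filters, DESeq2's Wald test, other sets of libraries, a replicate block, leaving out each library, thinned counts, and limma 3.58.1 on the deposited log2 values, the last 2 chosen after seeing the data. A planned motif search upstream of the piRNAs was not done.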

Additional observations from a re-analysis of the deposited data

How the results depend on the processing

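The counts of age calls ran from 5920 to 6258 in mut-16 and from 6088 to 6250 in hrde-1 without 1 library at a time. They moved by over 1.5 times only with a filter of at least 50 counts in 3 libraries, which tests 3933 piRNAs and called 3489 in mut-16 and 3561 in hrde-1. For the differences of age changes, leaving out 1 library gave 0 to 37 calls for mut-16 minus wild type, 0 to 1 for hrde-1 minus wild type and 0 to 1 for mut-16 minus hrde-1, and no filter on low counts gave 1, lower, for mut-16 minus hrde-1. Replicate numbers are shared between groups in the labels. Of 45 same-numbered pairs 20 had a correlation of deviations over 0.1 (median 0.09, lowest -0.11). The libraries were thus tied by number in part of the pairs only, and the main fit leaves the numbers out. Between genotypes at 48 h all 9 pairs were over 0.1, and 15 of 18 libraries correlated best with their own number. With a replicate block there were 11 calls for mut-16 minus wild type, 0 for hrde-1 minus wild type and 95 for mut-16 minus hrde-1, all of the 11 and the 95 higher, and 6258 and 6242 age calls. The cause was not tested.

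The change in class share, in percentage points, was smaller with smaller classes. With classes at 4-fold it was 22.8 and 25.7 for the 72 h-enriched class in mut-16 and hrde-1, and -30.6 and -35.7 for the 48 h-enriched class. With classes from the RT wild-type libraries, which hold 326 and 1114 piRNAs, it was 3.06 and 3.84, and -24.7 and -28.8. Against 38.2 and 44.3, and -36.5 and -42.6, in the report, the direction was the same in each. Leaving out 1 library gave 36.7 to 39.9 and 43.1 to 45.8 for the 72 h-enriched class, and -38.0 to -35.1 and -44.1 to -41.5 for the 48 h-enriched class. The ratio of totals was 1.46 to 1.89 in mut-16 and 0.818 to 1.096 in hrde-1. Of 46 age changes of named piRNAs, 9 lost their call in some alternative and 2 gained one, and none that was called changed sign. Depth limits the differences: 9666 piRNAs with low counts were not tested, and the column totals are not library depths.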
